A study of Homo sapiens with 6 samples.

Results

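RNA-seq of HCT-116 cells was searched for 9 genes of the RAS-ERK pathway and of its negative feedback. They are the kinase BRAF, the phosphatases DUSP4, DUSP5 and DUSP6, the inhibitors SPRY2, SPRY4 and SPRED1, and the transcription factors ETV4 and ETV5. The members were chosen by name, and each was found in 1 row of the deposited table, which makes 9 of 27918 rows. HCT-116 is an established line from a human colorectal carcinoma. The study compared cells transfected with an antisense LNA GapmeR against the long non-coding RNA CASC9 (labelled GapC9) with cells that received a negative control GapmeR (labelled GapNC), both at 10 nM, to ask how silencing CASC9 changes gene expression. A GapmeR is a short oligonucleotide with a DNA centre that directs RNase H to cut the RNA it pairs with. There were 3 libraries in each group, and all 6 came from the same line with no other treatment named. The time from transfection to harvest is written as 24 h in one place and 48 h in another, and was not settled here. The sources do not say that the libraries came from separate cultures, so the p-values below measure the spread between these libraries, which may be technical.

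In this pathway, growth factor receptors load RAS with GTP, RAS activates the RAF kinases, RAF phosphorylates MEK and MEK phosphorylates ERK. Active ERK induces its own inhibitors. The DUSP phosphatases remove phosphate from ERK and related kinases, and the Sprouty (SPRY) and SPRED proteins act further up, around RAS and RAF. The PEA3 factors ETV4 and ETV5 are transcribed when ERK is active, and together with DUSP4, DUSP6, SPRY2 and SPRY4 they are widely used as a readout of pathway output in colorectal and other cancers. The table measures RNA only, so neither phosphorylated ERK nor any protein was seen here.

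The libraries labelled GapC9 did not hold less CASC9 than the controls, which were themselves at or near 0. A fall in CASC9 could thus not have been seen. Its level was 0, 0.0108 and 0 FPKM (fragments per kilobase of transcript and per M mapped fragments) in GapNC and 0.0528, 0.107 and 0 FPKM in GapC9. A two-sided exact permutation test of the means gave p = 0.400, where 3 libraries against 3 cannot give less than 0.1. CASC9 was under the level needed for the other tests, and the direction of every comparison below is taken from the library labels.

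The depth of the libraries was put at 22.8 to 24.4 M (mega) fragments. It came from the commonest length-scaled FPKM value of rows with 1 transcript, taken as 1 fragment. That value was searched only within a preset low range, which bounds the depth it can give. The Spearman correlation across genes was taken between a library's deviation from the mean and the GC content of the gene. It was 0.618, 0.013 and -0.101 in GapNC replicates 1 to 3 and 0.022, -0.339 and -0.384 in GapC9 replicates 1 to 3. The GC trend thus differed between the groups as well as within them, and replicate 1 had the highest value in both groups. The epithelial genes EPCAM, KRT8, KRT18 and CDH1 were expressed, while the intestinal differentiation genes CDX1, VIL1 and LGALS4 stayed at or near 0. The summed level of the 7 epithelial genes was 742 to 992 FPKM in GapNC and 769 to 975 FPKM in GapC9. The 4 fibroblast genes found in the table summed to 4.19 to 5.71 FPKM and 4.41 to 5.31 FPKM, nearly all from COL3A1 and COL1A1, with COL1A2 at or near 0. The 5 leukocyte genes summed to at most 0.285 FPKM and the 4 endothelial genes to at most 0.110 FPKM.

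The 9 genes lie on 9 different chromosomes of GRCh38, and their loci are given here from the GENCODE 29 annotation. BRAF spans chr7:140719327-140924928, DUSP5 spans chr10:110497838-110511544 and DUSP6 spans chr12:89347232-89353271. SPRY2 spans chr13:80335976-80340951, SPRY4 spans chr5:142310427-142326455 and SPRED1 spans chr15:38252326-38357249. ETV4 spans chr17:43527844-43579620 and ETV5 spans chr3:186046308-186110318. DUSP4 lies on chromosome 8, from 29333064 to 29350668. Only DUSP5 and SPRED1 are on the plus strand. Exons of BRAF overlap NDUFB2, exons of DUSP6 overlap AC024909.2 and exons of ETV4 overlap DHX8, each on the opposite strand. Whether the authors counted by strand is not given in the sources used here, so reads of these pairs may not be told apart. The row of ETV5 is joined with its neighbour DGKG and lists 13 ETV5 transcripts beside 4 of DGKG.

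DUSP4 and DUSP6 were higher and SPRED1 was lower in the libraries labelled GapC9, and the other 6 genes passed neither the adjusted threshold nor the fold rule. DUSP4 and DUSP6 were each about 1.5 times higher, and SPRED1 was at 0.411 of its control level. All 9 rows passed the filter of a mean of at least 0.1 FPKM, which kept 16028 rows. At an adjusted p under 0.05 from limma, 2 of the 9 were higher and 1 was lower, where 1.89% of all rows tested were higher and 5.10% lower. With the thresholds of the study's methods, mean levels that differ by a ratio of 2 or more, or 0.5 or less, and an unadjusted p under 0.05, 0 members were higher and 1, SPRED1, was lower, where 2.10% of all rows were higher and 4.32% lower. At an unadjusted p under 0.05 alone, 3 members were higher, ETV4 being the one added, and 1 was lower, where 9.09% of all rows were higher and 16.8% lower. The groups did not overlap for 2 members that were higher and 1 that was lower, beside 12.6% and 21.6% of all rows. The median log2 fold change was -0.0025 over the 9 members and -0.076 over all rows tested, all on the log2(FPKM + 0.1) scale. In bulk RNA, fewer cells expressing a gene and less RNA per cell cannot be told apart.

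**Figure D1:**
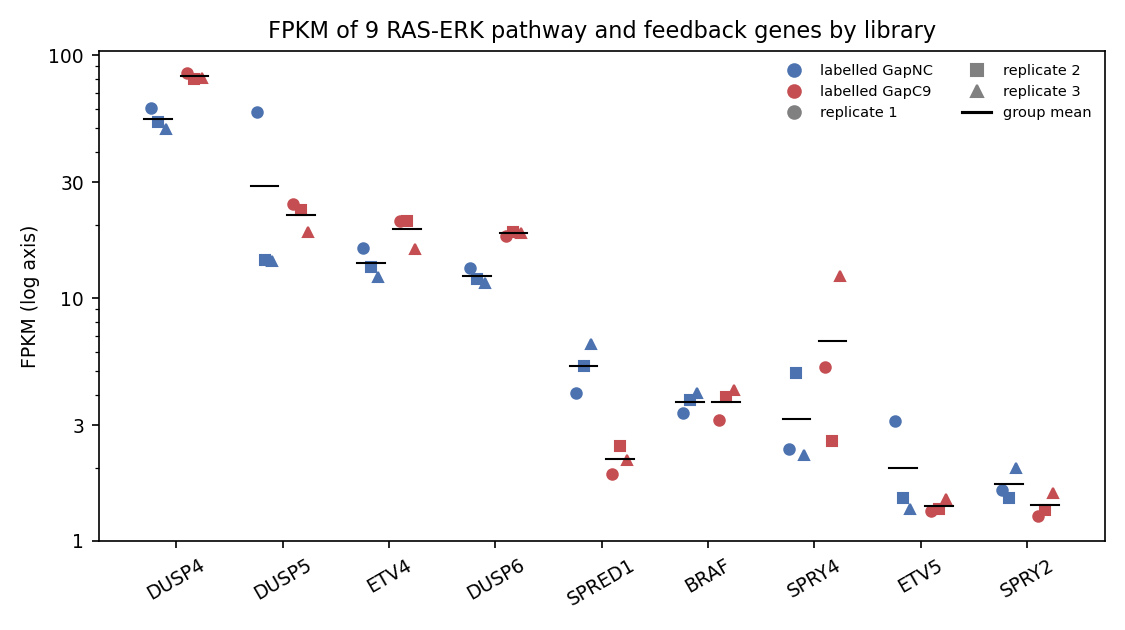
FPKM on a log axis for each of the 9 genes in the 3 libraries labelled GapNC (blue) and the 3 labelled GapC9 (red), ordered by the GapNC mean, with a symbol per replicate and a bar at the group mean. DUSP4 and DUSP6 sit higher in every GapC9 library and SPRED1 lower, while DUSP5 and ETV5 each have 1 high control library (58.5 and 3.11 FPKM).

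BRAF, the RAF-family kinase that phosphorylates MEK, had almost the same level in both groups. Its FPKM was 3.35, 3.79 and 4.08 in GapNC and 3.15, 3.91 and 4.19 in GapC9. The lowest and the highest values both came from GapC9, so the control range lay inside the other. The means were 3.74 ± 0.367 and 3.75 ± 0.540 FPKM (SD, n = 3), with a log2 fold change of -0.0025 (95% interval -0.37 to 0.37, limma adjusted p = 0.995). The interval leaves room for a change of 0.772 to 1.29 times. NDUFB2, the subunit of mitochondrial complex I encoded on the opposite strand, has a row joined with ADCK2 and was at 6.01 ± 1.43 and 5.17 ± 0.504 FPKM (SD, n = 3).

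DUSP4, a nuclear phosphatase that acts on ERK and also on JNK and p38, was the most abundant of the 9. Its FPKM was 60.7, 53.2 and 49.9 in GapNC and 84.6, 80.2 and 80.5 in GapC9. All 3 GapC9 libraries were above all 3 controls, and the gap between the groups was wider than either group's own range. The means were 54.6 ± 5.56 and 81.8 ± 2.47 FPKM (SD, n = 3), a ratio of 1.5. The log2 fold change was 0.59 (SE 0.10, 95% interval 0.34 to 0.83, limma adjusted p = 0.0314). Among all rows tested, 90.8% had a lower log2 fold change than DUSP4, so a rise of this size was not rare in these libraries.

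DUSP6, the cytoplasmic phosphatase that acts on ERK and hardly on the other MAP kinases, changed by the same amount from a lower level. Its FPKM was 13.3, 12.0 and 11.5 in GapNC and 18.1, 18.7 and 18.6 in GapC9. The 3 GapC9 values lay close together and did not reach down to the controls. The means were 12.3 ± 0.928 and 18.5 ± 0.345 FPKM (SD, n = 3), a ratio of 1.51, with a log2 fold change of 0.59 (SE 0.10, 95% interval 0.35 to 0.82, limma adjusted p = 0.0307). Reads of the antisense gene AC024909.2 could be part of this row.

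For DUSP5, the nuclear phosphatase specific to ERK, the comparison depended on 1 control library. Its FPKM was 58.5, 14.4 and 14.2 in GapNC and 24.3, 23.1 and 18.7 in GapC9. GapNC replicate 1 was above every other library, and the other 2 controls were below all 3 GapC9 libraries. The means were 29.0 ± 25.5 and 22.0 ± 2.94 FPKM (SD, n = 3), and the log2 fold change was -0.064 (95% interval -1.44 to 1.32, limma adjusted p = 0.960). Without GapNC replicate 1 the log2 fold change was 0.61, with an adjusted p of 0.0784, so the sign turned and the threshold was still not reached. GapNC replicate 1 is the library with the strongest GC correlation, and the longest DUSP5 transcript has a GC content of 55.9%. The part of GC in the high value was not tested. After a GC correction the log2 fold change was 0.13.

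SPRED1, which binds RAF and brings the RAS inactivator neurofibromin to the membrane, was the member that changed most among those called. Its FPKM was 4.07, 5.23 and 6.49 in GapNC and 1.88, 2.46 and 2.16 in GapC9. The highest GapC9 library was below the lowest control. The means were 5.27 ± 1.21 and 2.17 ± 0.292 FPKM (SD, n = 3). The log2 fold change was -1.23 (SE 0.20, 95% interval -1.72 to -0.73, limma adjusted p = 0.0308), and 2.61% of all rows tested had a lower value. Its longest transcript has 7780 bases and a GC content of 38.9%, the lowest of the 9, and after the GC correction the log2 fold change was -1.31.

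NF1, which encodes neurofibromin, and the other SPRED genes were read beside SPRED1. NF1 was at 0.640, 0.698 and 0.814 FPKM in GapNC and at 0.262, 0.376 and 0.438 FPKM in GapC9. It passed the fold rule as lower but not the adjusted threshold, with a log2 fold change of -0.85 and a limma adjusted p of 0.0672. SPRED2 was at 15.8 and 16.0 FPKM on average, with a log2 fold change of 0.0096 and a limma adjusted p of 0.973, and its sign turned in 3 of the fits with 1 library left out. SPRED3 ranged from 0.0448 to 0.596 FPKM over the controls and from 0.117 to 0.295 FPKM over GapC9, with an adjusted p of 0.727.

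SPRY2, one of the Sprouty inhibitors of receptor tyrosine kinase signalling, was the least abundant member in GapNC. Its FPKM was 1.62, 1.51 and 2.0 in GapNC and 1.27, 1.34 and 1.58 in GapC9. The groups overlapped only through GapC9 replicate 3, which was above GapNC replicate 2. The means were 1.71 ± 0.260 and 1.40 ± 0.162 FPKM (SD, n = 3), with a log2 fold change of -0.27 (95% interval -0.66 to 0.12, limma adjusted p = 0.344).

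SPRY4, another Sprouty protein that restrains RAS-ERK activation, had the largest fitted rise and the widest interval of the 9. Its FPKM was 2.40, 4.91 and 2.27 in GapNC and 5.21, 2.57 and 12.3 in GapC9. The groups overlapped, since GapNC replicate 2 was above GapC9 replicate 2, and GapC9 replicate 3 stood apart from all others. The means were 3.19 ± 1.49 and 6.68 ± 5.01 FPKM (SD, n = 3), a ratio of 2.09, but the log2 fold change of 0.85 had a 95% interval of -0.62 to 2.32 (limma adjusted p = 0.422). Without GapC9 replicate 3 it was 0.28. SPRY1, the other Sprouty gene above the filter, was at 1.17, 1.17 and 1.45 FPKM in GapNC and 2.21, 1.74 and 1.51 FPKM in GapC9, with an adjusted p of 0.164, and SPRY3 stayed under 0.1 FPKM in every library.

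ETV4, a PEA3-group ETS factor, was close to the pattern of DUSP4 and DUSP6 but did not pass. Its FPKM was 16.1, 13.4 and 12.2 in GapNC and 20.8, 20.8 and 15.9 in GapC9. Only GapC9 replicate 3 reached down to the controls, just under GapNC replicate 1. The means were 13.9 ± 1.97 and 19.2 ± 2.82 FPKM (SD, n = 3), with a log2 fold change of 0.46 (SE 0.16, 95% interval 0.064 to 0.86, unadjusted p = 0.0294, limma adjusted p = 0.146). With the GC correction the log2 fold change was 0.74 and the adjusted p 0.0128, the one processing choice that brought it past the threshold. Its longest transcript has the highest GC content of the 9, 60.8%. DHX8, the splicing helicase on the opposite strand, was at 6.37, 6.15 and 5.25 FPKM in GapNC and 4.41, 3.82 and 4.01 FPKM in GapC9. DHX8 was fitted lower where ETV4 was fitted higher, and it too passed neither call rule (limma adjusted p = 0.0617).

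ETV5, the PEA3-group relative of ETV4, was low in both groups and can only be read together with DGKG, a diacylglycerol kinase. The joined row had 3.11, 1.51 and 1.36 FPKM in GapNC and 1.33, 1.36 and 1.49 FPKM in GapC9. As for DUSP5, GapNC replicate 1 stood above the other 5 libraries, which lay close together. The means were 1.99 ± 0.972 and 1.39 ± 0.0818 FPKM (SD, n = 3), with a log2 fold change of -0.39 (95% interval -1.16 to 0.38, limma adjusted p = 0.481). Without GapNC replicate 1 it was -0.035. ETV1, the remaining PEA3-group gene, had a log2 fold change of -0.089 and an adjusted p of 0.852, with overlapping groups.

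**Figure D2:**
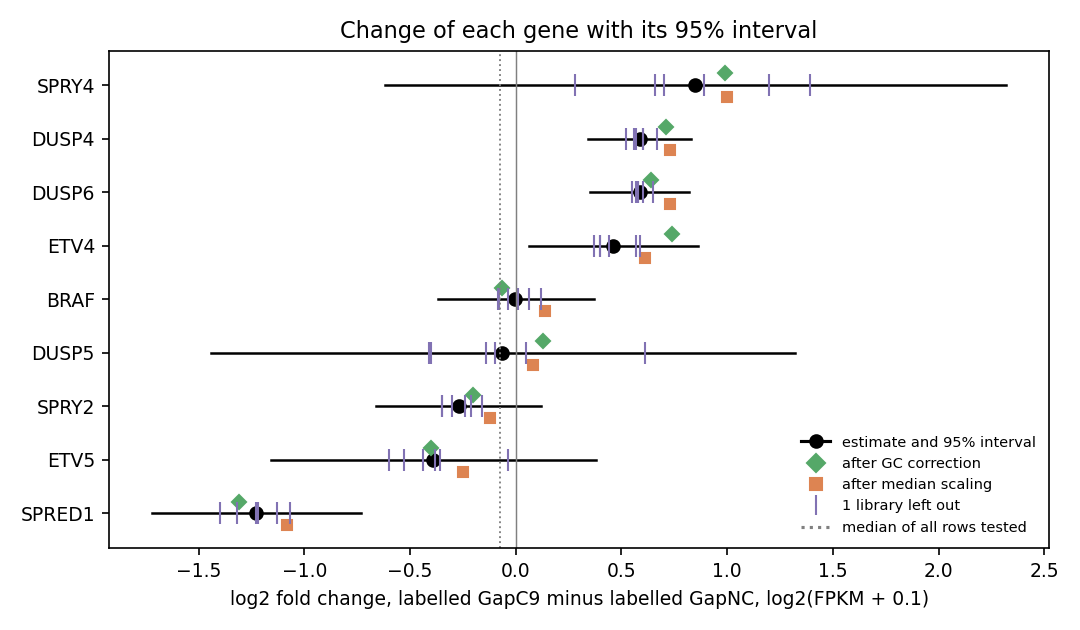
Log2 fold change of each gene, labelled GapC9 minus labelled GapNC, on the log2(FPKM + 0.1) scale, with its 95% interval (black), the value after GC correction (diamond), after median scaling (square) and with each library left out (ticks). The intervals of DUSP4, DUSP6 and ETV4 lie above 0 and that of SPRED1 below it, and 1 left-out library moves DUSP5 from -0.064 to 0.61 and SPRY4 from 0.85 to 0.28.

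The 3 calls were close to the threshold and rested on most of the libraries. DUSP4 stayed past it in 1 of the 6 fits with a library left out, the one without GapNC replicate 1 (limma adjusted p = 0.0278), and had 0.0781 to 0.122 without any other library. DUSP6 likewise had 0.0278 without GapNC replicate 1 and 0.0747 to 0.122 without any other library. SPRED1 had 0.0327 without GapNC replicate 1 and 0.0733 to 0.108 without any other. The size of each change moved little over these fits, from 0.52 to 0.67 for DUSP4, from 0.55 to 0.65 for DUSP6 and from -1.40 to -1.07 for SPRED1. Scaling each library to the same median moved the median of all rows from -0.076 to 0.069 and that of the 9 members from -0.0025 to 0.14, and the 3 genes kept their direction and their call, at 0.73, 0.73 and -1.08 for DUSP4, DUSP6 and SPRED1. With the replicate number as a block, none of the 3 kept its call (limma adjusted p = 0.0614, 0.0656 and 0.0608). In that fit 0 of all rows were called in either direction.

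**Figure D3:**
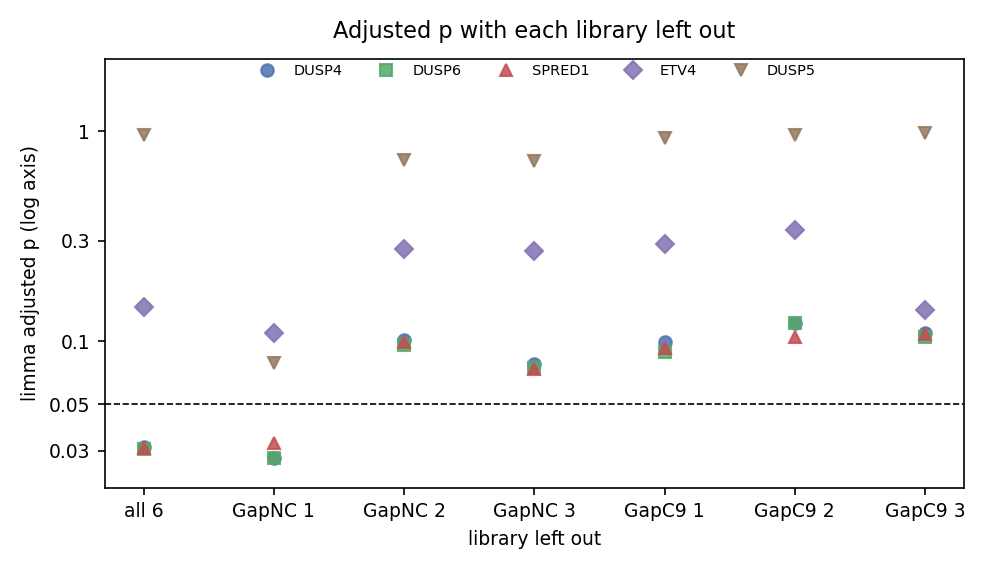
Limma adjusted p on a log axis for DUSP4, DUSP6, SPRED1, ETV4 and DUSP5 with all 6 libraries and with each library left out, with the 0.05 threshold dashed. DUSP4, DUSP6 and SPRED1 lie under the threshold with all 6 libraries and without GapNC replicate 1, and above it in the other 5 fits.

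FPKM is per transcript length, so the levels of different genes were set side by side, with no correction for GC. The ETV5 row also holds DGKG. Those of BRAF, DUSP6 and ETV4 may hold reads of the opposite strand. In GapNC the mean levels ran in the order DUSP4, DUSP5, ETV4, DUSP6, SPRED1, BRAF, SPRY4, ETV5 and SPRY2, from 54.6 down to 1.71 FPKM. Only DUSP6 and SPRED1 were neighbours whose ranges over the 3 libraries did not overlap. In GapC9 the order was DUSP4, DUSP5, ETV4, DUSP6, SPRY4, BRAF, SPRED1, SPRY2 and ETV5, from 81.8 down to 1.39 FPKM. Here the ranges of DUSP4 and DUSP5, of DUSP6 and SPRY4, of BRAF and SPRED1, and of SPRED1 and SPRY2 were apart, and those of the other neighbours overlapped. The 3 phosphatases and ETV4 were above 83.1% to 97.4% of all rows tested in GapNC, and SPRED1 went from above 65.7% of rows in GapNC to above 49.8% in GapC9.

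Promoter sequence was read for the members with a RefSeq entry (GRCh38.p14), from 250 bases before to 50 after each start, which gave 7 windows for 5 of the 9 genes. The ETS core CCGGAA, bound by ETV4, ETV5 and many other ETS factors, was searched on both strands and was found in 1 window, the most upstream of 3 of SPRY2, and in 17.2% of all 35116 promoters. The octamers TGAATGAA and TGAATGGA of the repressor CIC, which ERK relieves, were in none of the 7 windows and in 1.65% and 1.03% of all promoters. The AP-1 motif TGANTCA and the CArG box of SRF were also in none, against 7.71% and 1.29%. The CCAAT box was in the windows of DUSP6, which was called higher, and of BRAF, which was not called, and in 34.6% of all promoters. The GC box GGGCGG was in the windows of SPRY4 and SPRED1 and in 2 of the SPRY2 windows, beside 45.0% of all promoters. These are matches of letters in a short window, and other regions of the genes were not searched.

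The window of BRAF held 2 CCAAT boxes and that of DUSP6 held 1. Stretches of 30 bases are shown for the ETS core of SPRY2, the CCAAT box of DUSP6 and the more upstream CCAAT box of BRAF. A called and an uncalled gene can so be compared. Each runs 5′ to 3′ along the minus strand of its gene, with the motif in capitals (ATTGG is CCAAT on the other strand). The stretches shown lie at chr13:80341251-80341280, chr12:89352531-89352560 and chr7:140924313-140924342, and their motifs begin 142, 46 and 61 bases before the RefSeq start. The other BRAF stretch, at chr7:140924240-140924269, has its motif after the start and is not shown.
SPRY2, ETS core: tccctgcctcctCCGGAAaggcgagggcgc
DUSP6, CCAAT box: ccgcagcacgctcATTGGctggcccggaga
BRAF, CCAAT box: cccagatgtggggATTGGggcagcggtggt

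Other genes whose levels over the 6 libraries were most like those of the 3 called members were found by Pearson correlation of log2(FPKM + 0.1) among 10032 rows with at least 1 FPKM on average and no 0. The 6 libraries fall into their 2 groups for these genes, so a high value mostly repeats the difference between groups. The 3 rows most like DUSP4 were POLR2A, the largest subunit of RNA polymerase II (53.9 and 87.0 FPKM), COL11A2 (0.755 and 2.03 FPKM) and BRD8 (8.63 and 11.7 FPKM), at 0.9947 to 0.9966. For DUSP6 they were RAB36, NPIPA5 and FUNDC2, at 0.9946 to 0.9966. SPRED1 was most like CELF2 (3.05 and 1.67 FPKM), RGPD6 and the pseudogene SMG1P2, at 0.9945 to 0.9965. NPIPA5, RGPD6 and SMG1P2 belong to families of near-identical copies, so their levels are uncertain. There were 146, 157 and 265 rows above 0.95 for DUSP4, DUSP6 and SPRED1.

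The rest of the pathway was read from lists of 126 genes by role, of which 121 passed the filter. At a limma adjusted p under 0.05, 3 were higher and 3 were lower (2.48% each way, beside 1.89% and 5.10% of all rows). By the fold rule 2 were higher and 4 lower (1.65% and 3.31%, beside 2.10% and 4.32%), so these shares were near those of all rows. At an unadjusted p under 0.05 the shares were 12.4% higher and 20.7% lower, beside 9.09% and 16.8%, against which the counts by role below are to be read. The median log2 fold change over the 121 was -0.11, beside -0.076 for all rows tested. With 1 library left out, none of ERBB3, PEA15, FOSB, SHC1 and KSR2 stayed past the adjusted threshold in any of the 6 fits, whichever library it was, and IER2 did only without GapC9 replicate 3 (adjusted p = 0.00132). After median scaling SHC1 and KSR2 were not called either. After median scaling and after the GC correction the median of all rows was 0.069 and 0.021. The medians of the receptors (-0.24 and -0.29), the cascade kinases (-0.11 and -0.088) and the other feedback inhibitors (-0.20 and -0.044) stayed below 0. So did that of the JNK, p38 and ERK5 arms (-0.071 and -0.019). Those of the ligands (0.43 and 0.32), the adaptors (0.22 and 0.095) and the other transcription factors and targets (0.15 and 0.17) stayed above 0. The medians of the RAS GTPases and of the scaffolds changed sign between settings.

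Upstream of RAS, the ligands had 0 of 9 tested genes called by limma, with 2 higher and 1 lower at an unadjusted p under 0.05, and a median log2 fold change of 0.28, and 4 of them had GapC9 libraries all above the controls (44.4%, beside 12.6% of all rows). The receptors had 1 of 11 called, the kinase-impaired receptor ERBB3, at 45.2, 48.2 and 44.1 FPKM in GapNC and 61.3, 61.0 and 58.4 FPKM in GapC9 (limma adjusted p = 0.0455). Its row is joined with PA2G4 and AC034102.2. The receptors' median was -0.38, and for 7 of the 11 all GapC9 libraries were below the controls (63.6%, beside 21.6% of all rows), none of them past the adjusted threshold. Among 13 adaptors and RAS exchange factors, 1 was called, the adaptor SHC1, in a row joined with PYGO2, at 26.4, 23.2 and 22.6 FPKM in GapNC and 14.2, 17.0 and 14.0 FPKM in GapC9 (adjusted p = 0.0361).

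Of the 13 RAS GTPases and their GTPase-activating proteins, none passed the adjusted threshold and 5 had an unadjusted p under 0.05, 1 higher and 4 lower (7.69% and 30.8%, beside 9.09% and 16.8% of all rows). NRAS and HRAS had limma adjusted p-values of 0.843 and 0.360. The RAF, MEK, ERK, RSK and MNK kinases had 0 of 11 called and a median of -0.26. Of the 11, 9 were fitted lower, where 9035 of all 16028 rows tested were also fitted lower. After the GC correction 7 of the 11 were fitted lower. At an unadjusted p under 0.05, 3 were lower (27.3%, beside 16.8% of all rows). ARAF, MAP2K1, MAP2K2 and MAPK3 lay between -0.33 and 0.071, with adjusted p-values from 0.268 to 0.718. ARAF passed after the GC correction (0.32, limma adjusted p = 0.0434), and the other kinases named here passed in no setting.

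Among 10 scaffolds and modulators, PEA15, which holds ERK in the cytoplasm, was higher (37.9, 41.0 and 37.9 against 52.5, 51.0 and 50.8 FPKM, limma adjusted p = 0.0432). The scaffold KSR2 was lower (1.35, 1.40 and 1.36 against 0.798, 0.810 and 0.668 FPKM, adjusted p = 0.0314), and its relative KSR1 was lower by the fold rule (adjusted p = 0.0681). The other feedback inhibitors had 0 of 14 called and a median of -0.34, with 4 higher and 3 lower at an unadjusted p under 0.05 (28.6% and 21.4%, beside 9.09% and 16.8% of all rows). DUSP1, the nuclear phosphatase induced by stress, was among those that did not pass (adjusted p = 0.379). The JNK, p38 and ERK5 arms had 0 of 13 called and a median of -0.22, with 0 higher and 2 lower at an unadjusted p under 0.05, where 15.4% lower is close to the 16.8% of all rows.

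The 27 other transcription factors and target genes had a median of 0.0039, with 1 higher and 1 lower at the adjusted threshold. FOSB, an AP-1 subunit, was at 0.219, 0.0828 and 0.204 FPKM in GapNC and 0.487, 0.612 and 0.566 FPKM in GapC9 (limma adjusted p = 0.0454). At these low levels its log2 fold change was 0.41 with a pseudocount of 1 and 1.76 with 0.01. The call was lost at 0.01 (limma adjusted p = 0.0583). IER2, an immediate early gene, was at 54.3, 47.1 and 44.7 FPKM in GapNC and 0.769, 0.710 and 7.91 FPKM in GapC9 (adjusted p = 0.0379), and the SE of its log2 fold change, 0.89, was the largest among the listed genes called. By the fold rule FOSB and EGR3 were higher and IER2 and ETV6 lower. EGR3 and ETV6 passed by this rule alone, with limma adjusted p-values of 0.0565 and 0.0867. EGR1, the best known immediate early target of ERK, was at 21.7, 16.6 and 17.9 FPKM in GapNC and 0.311, 20.7 and 26.1 FPKM in GapC9, so 1 library alone was low (adjusted p = 0.561). CCND1, PHLDA1, EPHA2, EPHA4 and FOS had adjusted p-values from 0.186 to 0.581. EPHA2 passed after the GC correction (log2 fold change 0.67, limma adjusted p = 0.00548) and without GapNC replicate 1 (0.56, adjusted p = 0.0427). FOS passed after the GC correction (0.46, adjusted p = 0.0357), and CCND1, PHLDA1 and EPHA4 passed in no setting.

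**Figure D4:**
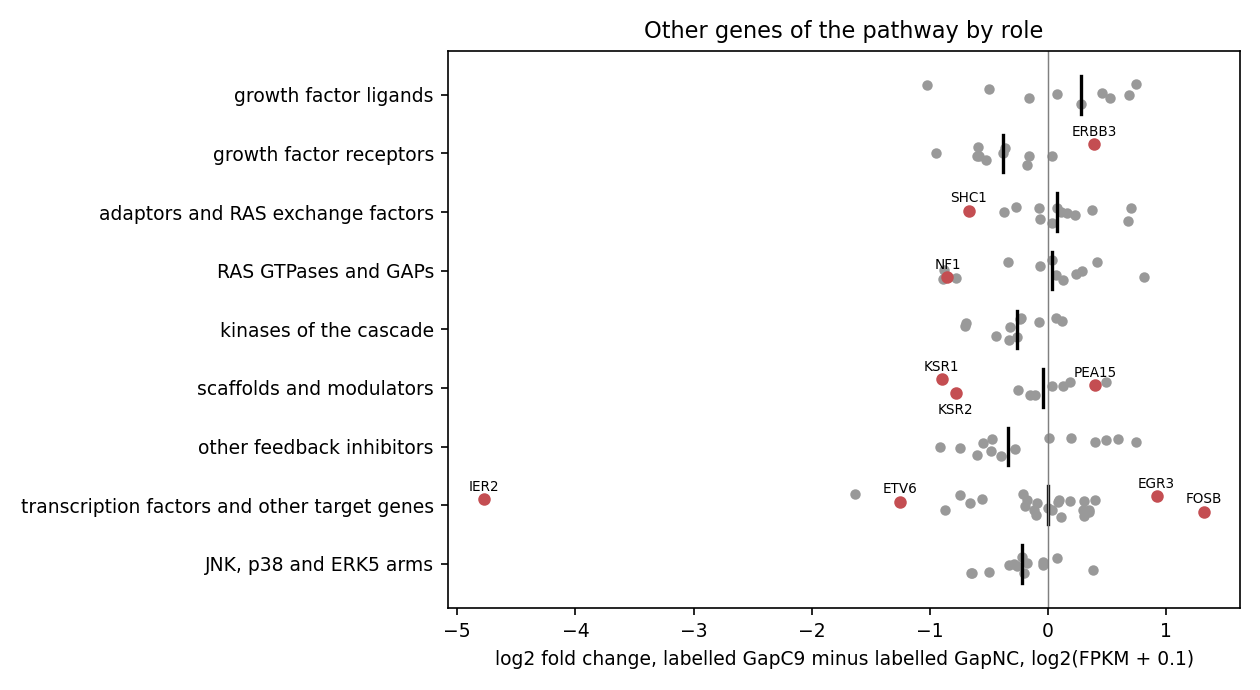
Log2 fold change, labelled GapC9 minus labelled GapNC on the log2(FPKM + 0.1) scale, of the 121 other pathway genes tested, 1 point each, by role, with a bar at the median of each list and genes passing either call rule in red and named. The medians run from -0.38 for receptors to 0.28 for ligands, and IER2 lies farthest out at -4.77.

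The annotation columns of the deposited table gave a further view of the feedback genes. DUSP4, DUSP6, SPRY2 and SPRY4 carry the GO term for negative regulation of the ERK cascade, and SPRED1 does not. Of 49 rows tested with this term, 4 were higher (DUSP4, DUSP6, ATF3 and C1QL4) and 4 lower (RANBP9, WNK2, RAPGEF1 and ARRB1) at a limma adjusted p under 0.05, with a median log2 fold change of -0.16. That is 8.16% each way, beside 1.89% and 5.10% of all rows, and DUSP4 and DUSP6 are 2 of the 4 that were higher. Of 90 rows tested with the term for positive regulation of the cascade, which BRAF and SPRY2 carry, 2 were higher and 8 lower (2.22% and 8.89%), with a median of -0.045. Of 220 rows tested with the KEGG MAPK signaling pathway, which holds BRAF, DUSP4, DUSP5 and DUSP6, 4 were higher and 11 lower (1.82% and 5.0%), about the shares of all rows, also with a median of -0.16.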

How the data were processed

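Poly(A) RNA of 6 HCT-116 libraries was sequenced in pairs on an Illumina instrument, and groups were taken from the transfection labels. The authors aligned the reads with HISAT to a UCSC human genome and used StringTie to assemble transcripts and compute the deposited FPKM values, which were used as deposited. The submitters' processing notes name HISAT2 2.0, StringTie 1.3.0, Bowtie 0.12.2 and a mouse build, mm8, which goes against the human labels. Assembly can join neighbouring genes or list a gene at 0 in some libraries. The authors made their own calls with edgeR, which needs counts, and no counts were used here.

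In R 4.3.3, limma 3.58.1 (lmFit, eBayes with trend, two-sided) was fitted to log2(FPKM + 0.1) of the 16028 rows whose mean reached 0.1 FPKM, and p-values were adjusted by Benjamini-Hochberg over all of them. Fold changes on this scale are understated for low genes. Errors are SDs over 3 libraries or limma standard errors and intervals. The counting error of single values is unknown. GC content came from GENCODE 29 transcripts for 99.3% of the rows tested, and 7 promoter windows from RefSeq. The script was tested on simulated data.

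Every member was named, with CASC9, pathway genes passing either call rule, a fixed set of other pathway genes (some of which are not reported here), and the 3 rows most like each called member. The members, the lists and the alternatives were chosen with earlier results of these data known. The alternatives were pseudocounts of 1 and 0.01, a minimum mean of 1 FPKM, no filter, median scaling, a GC correction (lowess, span 0.3), limma without trend, the replicate number as a block, and each library left out.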

Additional observations from a re-analysis of the deposited data

How the results depend on the processing

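BRAF and DUSP5 had no firm direction: BRAF ran from -0.086 to 0.12 over the fits with 1 library left out (0.0093 and 0.061 without GapNC replicates 2 and 3) and was 0.14 after median scaling, and DUSP5 ran from -0.41 to 0.61 (0.049 without GapC9 replicate 3), with 0.081 after median scaling and 0.13 after the GC correction. The other 7 members kept their sign in every setting.

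The count of members called higher (2) fell to 1 with no filter and without the trend, to 0 with a replicate block, and to between 0 and 2 with 1 library left out. The count called lower (1) was 0 with no filter and with the block, and 0 to 1 with 1 library left out. By the fold rule, 0 to 1 members were higher with 1 library left out, the 1 being SPRY4. DUSP4 was lost with no filter (adjusted p = 0.0620), without the trend (0.0555) and with the block (0.0614), SPRED1 with no filter (0.0521) and with the block (0.0608), and DUSP6 with the block (0.0656). Same-numbered libraries correlated at 0.0970, 0.0398 and 0.0243 in their deviations. The other pairs lay between -0.0930 and -0.00445, except GapNC replicate 3 with GapC9 replicate 2 (0.0578). The main fit used no pairing, and whether the replicate numbers mark a batch was not tested. The loss with no filter came with 27918 rows tested. With the block the log2 fold changes of DUSP4, DUSP6 and SPRED1 were unchanged. Their SEs were 0.078, 0.092 and 0.15, against 0.10, 0.096 and 0.20 in the main fit. The block fit has fewer residual degrees of freedom, and the cause of these losses was not tested.

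Over all rows, 303 were higher and 817 lower at the adjusted threshold, against 146 and 346 with no filter, 483 and 427 after median scaling, 1103 and 1243 after the GC correction, 0 and 0 with the block, and 16 to 240 and 16 to 570 with 1 library left out. By the fold rule 336 were higher and 693 lower, against 116 and 380 at a mean of at least 1 FPKM, 555 with no filter (983 lower), 582 and 383 after median scaling, and 466 and 412 after the GC correction. Over the pathway lists, 3 and 3 at the adjusted threshold became 2 and 6 at a mean of at least 1 FPKM, 0 and 0 with no filter or the block, 6 and 1 after median scaling, 13 and 11 after the GC correction, 2 higher without the trend and with a pseudocount of 0.01, and 0 to 1 and 0 to 3 with 1 library left out. By the fold rule, 2 and 4 became 0 and 2 at a mean of at least 1 FPKM, 5 and 2 after median scaling, and 1 to 4 and 3 to 9 with 1 library left out.

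Other signs that turned were ETV1 (0.056 after median scaling, -0.28 to 0.16 with 1 library left out), SPRED3 (-1.07 to 0.058), SPRED2 (-0.072 to 0.12, with -0.023 and -0.015), NRAS (-0.019 after the GC correction, -0.084 to 0.20, with -0.059), EGR1 (-2.68 to 0.32), HRAS (0.0058 after the GC correction), CCND1 (0.040 after median scaling, 0.0017 after the GC correction) and MAPK3 (0.066 after the GC correction). Depth cannot be given as counts, and genes near 0.1 FPKM are the least precise.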

Other observations

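Some pathway rows moved between libraries of the same group by far more than the groups differed, and these were picked out after their values were seen. JUNB, an AP-1 subunit, was listed at 46.2, 0 and 0 FPKM in GapNC and at 49.3, 0 and 0 FPKM in GapC9. CRKL, an adaptor of receptor signalling, was at 4.61, 4.50 and 38.4 FPKM in GapNC and at 25.4, 3.72 and 3.89 FPKM in GapC9. EREG, an EGFR ligand, was at 51.0, 69.4 and 14.4 FPKM in GapNC and at 49.8, 9.35 and 13.0 FPKM in GapC9. The cause of these steps was not tested.

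Among the genes with the GO term for negative regulation of the ERK cascade, the largest rise was that of C1QL4, a secreted C1q-like protein, from 0.103, 0.0527 and 0.178 FPKM in GapNC to 5.74, 1.68 and 4.57 FPKM in GapC9 (limma adjusted p = 0.0172). ATF3, a stress-induced transcription factor, was at 5.84, 6.64 and 5.60 FPKM in GapNC and at 12.1, 13.0 and 11.7 FPKM in GapC9 (adjusted p = 0.0159), a ratio of 2.03. RAPGEF1, an exchange factor for the small GTPase RAP1, was at 10.5, 13.3 and 13.4 FPKM in GapNC and at 5.49, 4.51 and 5.0 FPKM in GapC9 (adjusted p = 0.0166). Each of these 3 passed both call rules, as did WNK2, which was lower (limma adjusted p = 0.0413).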
